A study of Mus musculus with 4 samples.

Results

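The genes described here encode the proteins of the cytosolic ribosome. They were the genes of the deposited count matrices whose mouse symbols begin with Rps or Rpl, with the ribosomal S6 kinase genes (Rps6k), symbols containing -ps and symbols ending in os left out. The rule found 86 of 32285 genes, 34 of the small subunit (Rps genes and Rpsa) and 52 of the large subunit (Rpl genes). At least 1 unique molecule (UMI) was counted for 85 of them and at least 1000 UMIs for 81. Rpl10l, a testis-type copy of Rpl10, had 0 UMIs, Rpl39l had 3 and Rpl3l, the muscle copy of Rpl3, had 62.

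Single nuclei were prepared from snap-frozen pituitary glands of wild-type UM-HET3 mice, a genetically mixed stock used in ageing research, and counted with a droplet 3′ assay. The study set out to compare pituitary stem cells with age. There were 4 libraries, each a pool of 3 glands, labelled as males or as females at the age of 5 or of 22 months. With 1 library per group there is no replicate of any combination of age and sex, and a pooled library gives no spread between animals. The matrices held 7765 to 13595 barcodes and 33328821 to 65773807 UMIs per library. After filters on gene number, mitochondrial share and doublets, 6597 to 10355 nuclei per library were kept, at a median of 3460 to 4745 UMIs. Between 0.714% and 0.966% of a library's barcodes also occurred in another library.

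The sex labels did not match the transcripts in 2 libraries. Xist, which silences an X chromosome in female cells, had a UMI in 0.112% of nuclei of the library labelled 5-month males, 0.212% of the one labelled 5-month females, 97.3% of the one labelled 22-month males and 85.8% of the one labelled 22-month females. A Y-linked gene had a UMI in 85.6%, 84.3%, 0.203% and 0.304% of nuclei in the same order. Both libraries labelled 5 months therefore carried male-type and both labelled 22 months female-type transcripts, so a difference by labelled age cannot be told apart from a difference in sex-chromosome transcripts. The age labels of the 2 libraries could not be checked in this way. If these 2 had been exchanged, their labelled ages would be wrong too, and labelled sex would divide the libraries by age. This was not tested, and it limits every difference by labelled age or labelled sex given below. Groups are named by their labels throughout, and values per library are given with 5 months before 22 and, at each age, males before females.

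A ribosome joins a small subunit, which reads the messenger RNA, to a large subunit, which forms the peptide bond. Nearly every cell makes the proteins of both subunits in matched amounts, and their short, abundant mRNAs are kept under shared control of translation through a run of pyrimidines at the capped 5′ end, the terminal oligopyrimidine tract. In the pituitary, the endocrine cells translate large amounts of a few peptide hormones. A nucleus holds newly made and not yet exported transcripts together with cytosolic RNA carried over from the tissue, so nuclear levels of these mRNAs need not follow those of whole cells.

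The bases around the annotated start sites show a pyrimidine run for part of the family only. RefSeq promoter entries (GRCm38.p6) matched 66 of the 86 genes. In a window of 15 bases before and 15 bases from the start, read 5′ to 3′ on the gene's strand, an unbroken run of at least 8 pyrimidines occurred for 27 of 66 genes (40.9%), against 13.9% of 27025 genes with an entry. The windows below belong to some of the genes whose values are described further on. Others among those had short runs, such as Rpl11 (3 bases) and Rps7 (5 bases). The capitals mark the longest pyrimidine run. It can lie before the annotated start, as in Rpl13, and is then outside the mRNA by this annotation.
Rpl27a: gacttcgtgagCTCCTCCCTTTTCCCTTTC
Rps9: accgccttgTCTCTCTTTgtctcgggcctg
Rpl7a: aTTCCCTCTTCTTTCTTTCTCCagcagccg
Rpl15: gtgggagaaagCCTTCTTCCTTTCCTCTgg
Rpl13: TTCCCTTTCgcctgattttgattggcgttt
Rpl22l1: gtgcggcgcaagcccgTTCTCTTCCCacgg
Rplp2: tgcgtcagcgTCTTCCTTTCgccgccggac
Rplp0: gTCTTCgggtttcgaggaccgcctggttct
Rpl41: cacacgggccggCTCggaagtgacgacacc
Rpl9: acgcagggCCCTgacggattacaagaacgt

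The Rpl27a window lies at chr7:109519180-109519209 (+), that of Rps9 at chr7:3704026-3704055 (+), that of Rpl7a at chr2:26910792-26910821 (+) and that of Rpl15 at chr14:18270972-18271001 (-). The windows of Rpl13 at chr8:123102335-123102364 (+), Rpl22l1 at chr3:28805493-28805522 (+), Rplp2 at chr7:141447636-141447665 (+) and Rplp0 at chr5:115559452-115559481 (+) had runs of 9, 10, 10 and 5 bases. The windows of Rpl41 at chr10:128549154-128549183 (-) and Rpl9 at chr5:65391417-65391446 (-) had runs of 3 and 4 bases. The runs of Rpl7a, Rpl27a and Rpl15 were 21, 19 and 17 bases long. In the whole entry, from 250 bases before to 50 after the start and on either strand, the letters CCGGAAG (core of the ETS family motif) were found for 26 of 66 genes (39.4%, against 9.93% of all), AAGATGGC (core of the YY1 motif) for 6 (9.09%, against 3.19%) and TATAAA for 7 (10.6%, against 15.7%). These are matches of letters in a window.

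The 86 genes lay on 19 chromosomes, 82 on autosomes and 4 (Rpl39, Rpl10, Rps4x and Rpl36a) on the X chromosome. They were short: their median gene length, introns included, was 3328.5 bases, against 32386 bases for the 10425 genes above 10 CPM (UMIs of a gene per 1000000 UMIs). The shortest was Rps27rt with 374 bases and the longest Rps14 with 31449 bases. Together they gave 1473110 UMIs in the kept nuclei, 1.04% of all. The 10 genes with most UMIs (among them Rpl41, Rpl13, Rps21, Rps27a, Rps3a1, Rpl37a, Rpl27a, Rps29 and Rpl9) held 24.0% of these. Rpl41, which encodes the smallest protein of the ribosome, was at 376, 467, 415 and 365 CPM in the 4 libraries.

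Summed over the family, all kept nuclei had 11735 CPM in the library labelled 5-month males, 11820 in 5-month females, 10635 in 22-month males and 8289.8 in 22-month females. The first 3 lay close together and the library labelled 22-month females was the lowest. It was lowest for 77 of the 81 genes with at least 1000 UMIs, whereas it was lowest for 34.1% of the genes above 10 CPM. The library labelled 5-month males was highest for 45 of the 81, 5-month females for 30 and 22-month males for 6. The highest library exceeded the lowest by a median of 1.52-fold over the 81 genes (1.09 to 2.48), against 1.33-fold over all genes above 10 CPM.

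Several genes of the large subunit had a wide range. Rpl13 had 424, 349, 341 and 234 CPM. Rpl9 had 260, 222, 186 and 131 CPM. In both the library labelled 5-month males was highest and the one labelled 22-month females lowest. Rpl22l1, a copy of Rpl22, had 117, 101, 83.5 and 58.3 CPM, and Rpl18 had 145, 116, 113 and 80.9 CPM, in the same order of libraries.

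Only 4 of the 81 were not lowest in the library labelled 22-month females. Rps28, a small-subunit protein near the mRNA exit, had 98.7, 150, 117 and 126 CPM and was lowest in the library labelled 5-month males, in 10 of 11 cell classes. Rpl29 had 29.5, 23.2, 11.9 and 25.8 CPM and was lowest in the library labelled 22-month males in 11 of 11 classes, the widest range of the 81 at 2.48-fold. Its exact Poisson 95% interval in that library was 10.9 to 12.9 CPM, which covers counting error only. Rpl23a had 31.7, 34.4, 35.3 and 32.3 CPM, and Rpl5, which binds 5S ribosomal RNA, had 87.7, 89.5, 82.1 and 88.5 CPM, the narrowest range at 1.09-fold.

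**Figure D1:**
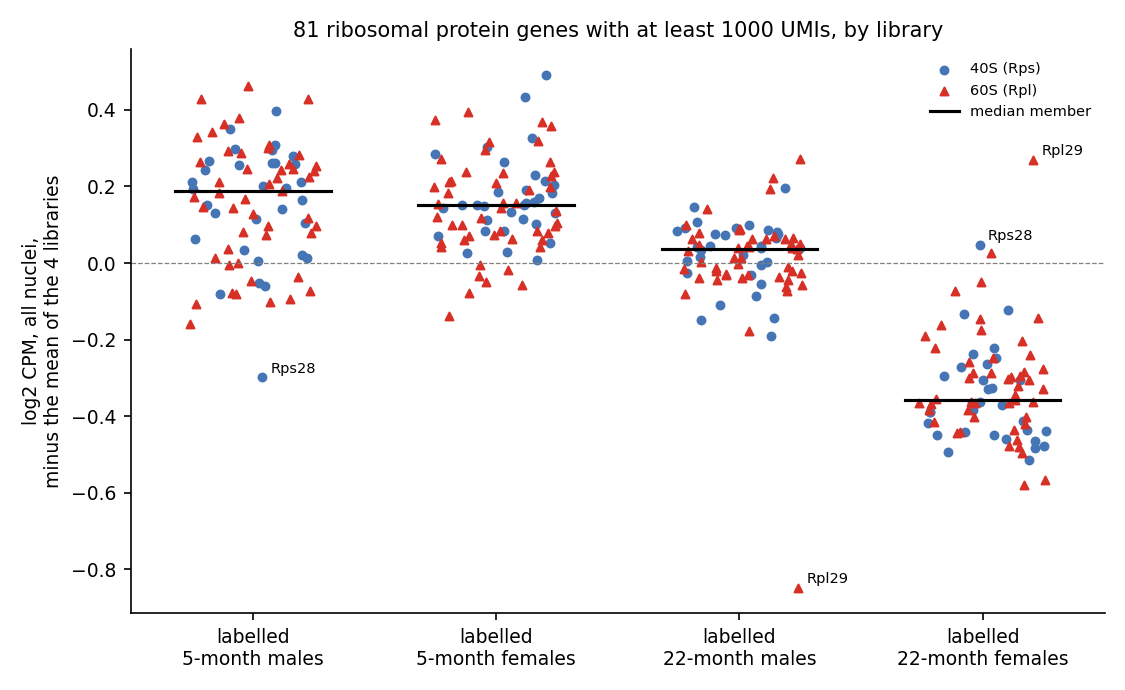
Level of the 81 ribosomal protein genes with at least 1000 UMIs in all kept nuclei of each library, as log2 CPM minus the gene's mean over the 4 libraries, with 1 point per gene (circles for the small and triangles for the large subunit) and a line for the median. The library labelled 22-month females is the lowest for 77 of 81 genes, and Rps28 and Rpl29 depart from that order.

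Nuclei fell into 11 classes that held 30 nuclei or more in each library, named from their marker genes: 6 hormone-producing classes (somatotrope, lactotrope, gonadotrope, thyrotrope, corticotrope and melanotrope) and stem, endothelial, macrophage, pituicyte and fibroblast or mural classes, each to be read as "-like". The ribosomal protein genes were left out of the clustering. Most somatotrope-like nuclei of the libraries labelled 5 months lay in clusters other than those of the libraries labelled 22 months, and the same held for lactotrope-like and gonadotrope-like nuclei, so a class compared across libraries is made of different clusters. Among melanotrope-like nuclei, 97.2% of a cluster of 284 nuclei, whose leading genes include the immediate early genes Fos, Junb and Egr1, came from the library labelled 5-month males.

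The library labelled 22-month females was the lowest in 11 of 11 classes, from 58.8% to 82.6% of the next lowest library. Its Poisson interval lay below those of the other 3 in 11 of 11. In somatotrope-like nuclei, which make growth hormone, the summed level was 13012, 12898, 13312 and 9383.5 CPM. In lactotrope-like nuclei, which make prolactin, it was 10310, 10585, 9597.6 and 7930.6 CPM. In stem-like nuclei it was 9271.6, 9290.2, 11766 and 7156.9 CPM, with the library labelled 22-month males the highest.

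Averaged over the 4 libraries, macrophage-like nuclei had the highest summed level, at 13671 ± 2753 CPM (SD, n = 4 libraries). Endothelial-like nuclei followed at 12605 ± 2721 and somatotrope-like nuclei at 12151 ± 1853. Macrophage-like exceeded endothelial-like nuclei in 4 of 4 libraries, but endothelial-like exceeded somatotrope-like nuclei in only 2 of 4. Gonadotrope-like nuclei, which make the gonadotropins, had the lowest mean at 7947.6 ± 1920, in 4 of 4 libraries below pituicyte-like nuclei, glia of the posterior lobe, at 9044.0 ± 2465. Thyrotrope-like nuclei had the same mean, 9044.0 ± 1282. Stem-like nuclei were at 9371.1 ± 1885, below somatotrope-like nuclei in 4 of 4 libraries by a mean of 0.38 ± 0.14 on the log2 scale, and could not be ordered against the corticotrope-like, thyrotrope-like, pituicyte-like or fibroblast-like classes, over each of which they were higher in 2 of 4 libraries. Gene by gene, macrophage-like nuclei held the highest mean for 51 of 81 genes and endothelial-like nuclei for 25, while gonadotrope-like nuclei held the lowest for 53 and pituicyte-like nuclei for 15. No such count was made over all genes, so these counts restate the summed order and are not results about single genes. The classes also differed in UMIs per nucleus, whose part in this order was not tested.

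**Figure D2:**
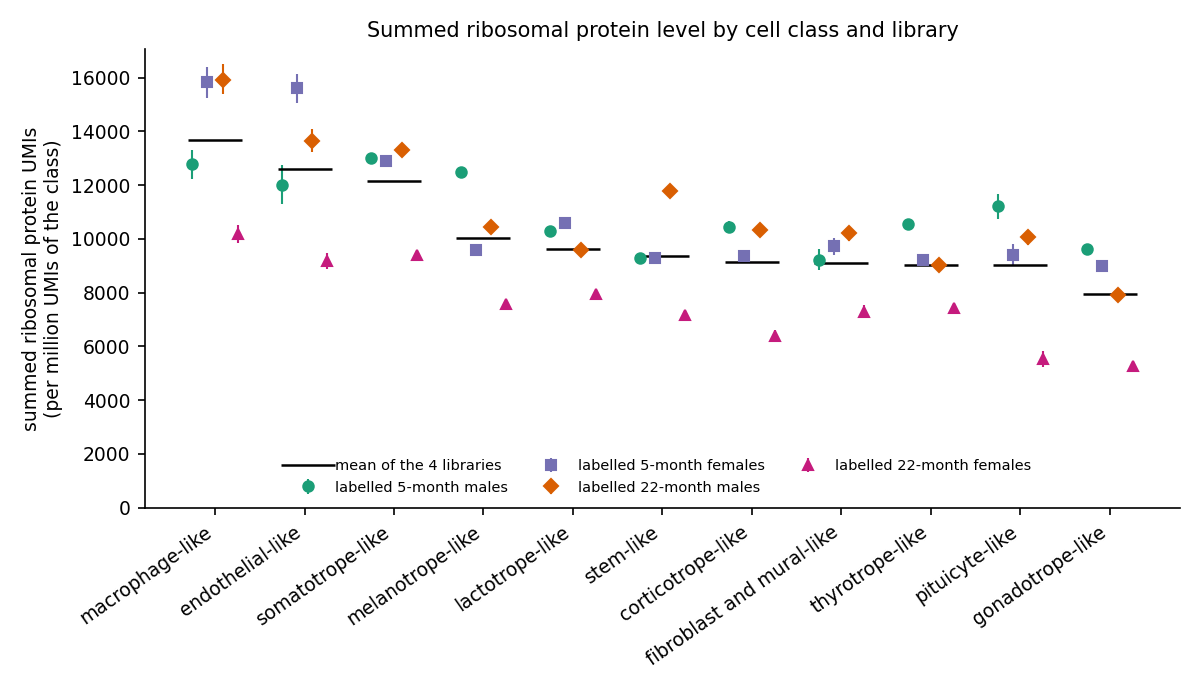
Summed level of the ribosomal protein genes (CPM) in each of 11 named classes, with 1 point per library, exact Poisson 95% intervals as bars and a black dash for the mean of the 4 libraries. The library labelled 22-month females is the lowest point in 11 of 11 classes, and macrophage-like nuclei have the highest mean.

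The relative level differs from the number of molecules per nucleus. Counted per nucleus, the family gave 44.0, 48.3, 49.8 and 44.8 UMIs in all kept nuclei, and the library labelled 22-month females was lowest in 3 classes and the library labelled 5-month males in 8. Stem-like nuclei had 21.6, 27.1, 35.2 and 24.6 UMIs of the family each, at median depths of 2147, 2755, 2696 and 2939 UMIs. Somatotrope-like nuclei had 52.7, 55.0, 57.0 and 46.6 at median depths of 3701, 3889, 3898 and 4450. The library labelled 22-month females was thus the deepest in both classes. A smaller share of the family and a larger amount of other RNA in a nucleus cannot be told apart in these values.

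Labelled age (22 months against 5) and labelled sex (female against male) were each tested over the 4 summed libraries of a class with edgeR's quasi-likelihood test, which has 1 residual degree of freedom here, with Benjamini-Hochberg adjustment over all genes tested. In somatotrope-like nuclei 0 of 83 tested genes of the family changed with labelled age at an adjusted p under 0.05 by edgeR or by DESeq2, and 8 had an unadjusted edgeR p under 0.05 (9.64%, against 25.1% of all genes). Of all genes tested there, 6.60% were called. The median log2 difference was -0.18 for the family and -0.02 for all genes. With labelled sex 0 of 83 were called by either tool, 39 had an unadjusted p under 0.05 (47.0%, against 12.9% of all genes), and 77 of 83 differences were negative (median -0.33, all genes 0.01, with 0.944% of all genes called). Without the filter on low counts edgeR called 28 of the family lower, where 3.33% of all genes were called.

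In lactotrope-like nuclei 4 of 83 genes were lower with labelled age by edgeR, where 25.9% of all genes were called, 12.6% as lower. DESeq2 called 0. Rps7, of the small subunit, had 171, 147, 118 and 99.6 CPM, with both libraries labelled 22 months below both labelled 5 months. Its log2 difference was -0.36 ± 0.12 (SE, adjusted p = 0.0403). Rpl9 had 224, 193, 161 and 123 CPM, a difference of -0.37 ± 0.12 (adjusted p = 0.0434), and Rpl22l1 had 107, 98.9, 78.6 and 56.8 CPM, a difference of -0.43 ± 0.13 (adjusted p = 0.0279). The groups did not overlap in any of these, as was the case, with 22 months lower, for 43 of 83 genes of the family and 47.3% of all genes. Rps19bp1 encodes a protein that binds Rps19, not a ribosomal protein, and meets the rule by its symbol. It had 9.25, 7.93, 3.93 and 4.10 CPM, with a difference of -0.90 ± 0.29 (adjusted p = 0.0409). Fits on 3 libraries could keep only labelled age as a term, and none of the 4 calls held in them. Dropping labelled sex as a term with all 4 libraries kept also ended each call, so the effect of a single library cannot be told apart from that of the term. The family's median was -0.08, against -0.02 for all genes. The family's summed level in this class differed by -0.26 on the CPM scale. Trimmed-mean scaling of the class totals, computed apart from the fits and without the low-count filter, moved this by 0.24, to -0.02. The fitted values are relative to edgeR's own trimmed-mean scaling over the genes kept by the filter, whose shift need not be the same. With labelled sex 0 genes were called by either tool and 14 had an unadjusted p under 0.05, 16.9% against 12.3% of all genes (median -0.14, all genes 0.01, 1.82% of all genes called).

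In stem-like nuclei 0 of 81 genes were called with labelled age by either tool, 4 had an unadjusted p under 0.05 (4.94%, against 16.0% of all genes), and the medians were -0.02 for the family and -0.01 for all genes, of which 5.92% were called. With labelled age as the only term, 4 were called lower without the library labelled 22-month males, and without that labelled 22-month females 1 was called higher. With labelled sex 7 of 81 were lower by edgeR, where 1.22% of all genes were called, 0.534% as lower. DESeq2 called 0. The 7 were all of the large subunit, and 80 of 81 differences were negative (median -0.46, all genes -0.01). Rpl7a had 80.0, 48.7, 80.4 and 38.2 CPM from 63, 32, 206 and 36 UMIs, so both libraries labelled female lay below both labelled male. Its difference was -0.97 ± 0.25 (edgeR adjusted p = 0.0181). Rpl11, which carries 5S ribosomal RNA with Rpl5, had 183, 166, 194 and 81.7 CPM (-0.76, adjusted p = 0.0401), and Rpl13 had 325, 249, 369 and 209 CPM (-0.67, adjusted p = 0.0475). Rpl15, Rpl8, Rpl18 and Rpl23 had differences from -0.82 to -0.73. The labelled-sex groups did not overlap for any of the 7, as was the case, with females lower, for 33 of 81 genes of the family and 12.7% of all genes. Each of the 7 calls ended when labelled age was dropped as a term, with all 4 libraries or, as fits on 3 libraries require, with any single library left out. Leaving the hormone genes out of the fit, keeping doublets or dropping the mitochondrial limit each gave 0 calls. The library labelled 5-month females carried male-type transcripts and the one labelled 22-month males female-type transcripts, so labelled sex does not divide the libraries by sex-chromosome transcripts.

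The remaining 8 classes, tested for labelled age and sex in 16 fits with 77 to 83 genes of the family each, gave 15 lower and 0 higher calls in 6 fits by edgeR, at 0% to 8.79% of all genes called per fit. By labelled age, Rpl18 (-0.77) and Rps7 (-0.67) were lower in gonadotrope-like nuclei (3.07% of all genes lower), Rpl9 (-0.91) in thyrotrope-like nuclei (0.774%), Rpl22l1 (-0.70) in melanotrope-like nuclei (0.823%) and Rps21 (-1.03) and Rps27a (-1.03) in pituicyte-like nuclei (1.03%). By labelled sex, 6 genes were lower in melanotrope-like nuclei (0.399% of all genes lower), among them Rps16 (-0.78) and Rpl9 (-0.70), and 3 in pituicyte-like nuclei (1.31%), among them Rpl14 (-1.33) and Rps27a (-1.07). The melanotrope-like nuclei of the library labelled 5-month males lay largely in the cluster with immediate early genes, whose part in the 7 melanotrope calls was not tested. In the other 10 fits edgeR called 0 genes of the family. Its unadjusted p was under 0.05 for 4 to 29 of them and for 6.14% to 11.9% of all genes. By labelled sex the family's share exceeded that of all genes in each such fit. It was 35.8% against 7.585% in corticotrope-like and 8.861% against 8.289% in fibroblast-like or mural nuclei. By labelled age it was higher in endothelial-like nuclei (12.66% against 9.498%). It was lower in corticotrope-like (4.938% against 11.93%), macrophage-like (6.494% against 9.77%) and fibroblast-like or mural nuclei (6.329% against 9.971%). DESeq2 was not run in these 8 classes. The share of all genes called at an adjusted p under 0.05 in those 10 fits is given for labelled age and then sex. It was 1.57% and 0.617% in corticotrope-like and 0.368% and 0.184% in endothelial-like nuclei. It was 0.184% and 0% in macrophage-like and 0.78% and 0.164% in fibroblast-like or mural nuclei. For labelled sex alone it was 1.06% in gonadotrope-like and 0.0559% in thyrotrope-like nuclei.

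The 5 classes that make no hormone were compared with the 6 hormone-producing classes within the same libraries, with the library as a term. The fit took the 44 sums of class and library and treated the classes of a library as independent, so its p-values do not stand for 4 repeats. By edgeR 24 of 83 genes were higher and 2 lower in the non-hormone classes, where 52.3% of all genes were called, 21.1% as higher and 31.2% as lower. Another scaling (relative log expression) gave 42 calls and DESeq2 gave 47, all higher, where 51.3% and 58.4% of all genes were called, and edgeR without the filter on low counts gave 6 (31.4% of all genes). In the fit with all filters 76 of 83 differences were positive, with a median of 0.11 against -0.07 for all genes. Of 34 small-subunit genes tested 12 were higher and 0 lower, and of 49 large-subunit genes 12 were higher and 2 lower. In CPM 19 of the 24 were higher in 4 of 4 libraries. The higher genes included 3 of the 4 on the X chromosome (Rpl10, Rps4x and Rpl36a), each lost without the library labelled 22-month males. Of the 26 calls as a whole, edgeR made 10 without that library, 15 without the one labelled 5-month females and 16 without the one labelled 22-month females.

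The P stalk of the large subunit, which recruits translation factors, was among the higher genes in 2 of its 3 proteins. Rplp0, its anchor, had class means of 111, 84.2, 108 and 68.0 CPM in the hormone classes and 130, 121, 142 and 89.7 in the others, higher in 4 of 4 libraries by 0.33 ± 0.07 on the log2 scale (edgeR adjusted p = 0.00012). Rplp1 had 113, 106, 141 and 94.6 against 154, 164, 175 and 100 CPM, a difference of 0.32 ± 0.07 (adjusted p = 0.000107). Rplp2 had 76.5, 93.6, 89.3 and 73.3 against 80.1, 103, 111 and 74.1 CPM and was not called. Between libraries the stalk genes varied as the rest of the family did, with the library labelled 22-month females the lowest for each.

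Rpl7 had class means of 99.6, 72.6, 87.2 and 59.4 CPM in the hormone classes and 123, 86.0, 130 and 72.3 in the others, a difference of 0.33 ± 0.06 (edgeR adjusted p = 2.4e-05). Rps15, Rpl26, Rpl23, Rpl18 and Rpl27a were higher by 0.28 to 0.23, in 4 of 4 libraries each. Rpl7, Rplp0, Rplp1, Rps15, Rpl23 and Rpl27a stayed called whichever library was left out. The 2 lower genes were Rpl22l1 (-0.20 ± 0.08, adjusted p = 0.0397) and Rpl41 (-0.18 ± 0.06, adjusted p = 0.0191). With relative log expression scaling edgeR gave adjusted p of 0.134 and 0.09 for these, and neither was lower in CPM in 4 of 4 libraries.

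Stem-like nuclei alone differed from the hormone classes in 2 higher and 1 lower of 83 genes by edgeR, where 46.8% of all genes were called, 24.7% as higher and 22.1% as lower. The medians were 0.02 for the family and -0.02 for all genes. Rps9, a small-subunit protein that helps hold decoding accuracy, had 193, 173, 173 and 134 CPM in stem-like nuclei and 155, 130, 137 and 86.1 in the hormone classes, higher in 4 of 4 libraries by 0.48 ± 0.12 (adjusted p = 0.00093). Rpl27a had 220, 249, 281 and 197 against 221, 206, 200 and 142 CPM, higher in 3 of 4 libraries by 0.36 ± 0.08 (adjusted p = 0.000241). Rpl13a had 76.2, 53.2, 89.0 and 55.2 against 99.4, 82.1, 94.7 and 72.1 CPM, lower by 0.27 on the log2 scale (-0.27 ± 0.10, adjusted p = 0.0319). The first 2 stayed called without any one library, while Rpl13a stayed in 1 of 4 such fits (the one without the library labelled 22-month males) and had an adjusted p of 0.0649 with the other scaling.

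**Figure D3:**
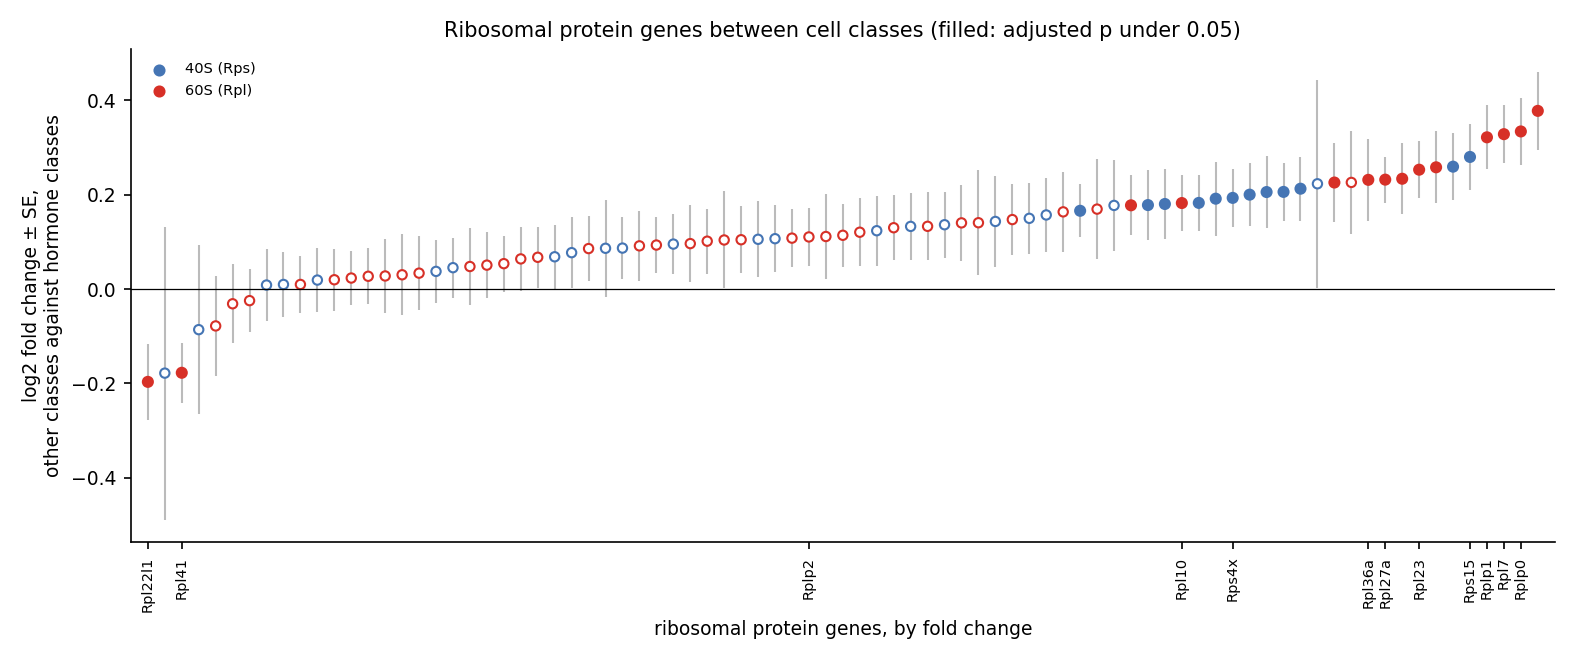
Log2 difference ± SE of each ribosomal protein gene between the non-hormone and the hormone-producing classes, as fitted by edgeR over the 44 sums of class and library, with filled points for called genes and names for some genes described in the text. Of 83 genes, 24 are called higher and 2 lower, and 76 lie above 0.

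Copies of family members were also lowest in the library labelled 22-month females. Rps27l, a p53-responsive copy of Rps27, had 19.5, 18.4, 18.0 and 13.0 CPM, and Rps27rt, an intronless copy of Rps27, had 7.38, 7.87, 5.98 and 4.55 CPM. Rpl36al, a copy of Rpl36a, had 110, 97.1, 91.6 and 76.3 CPM, and Rpl7l1, which works in nucleolar assembly, had 44.8, 39.2, 36.9 and 30.8 CPM. Rpl22, whose copy Rpl22l1 is described above, had 70.8, 73.3, 64.5 and 49.9 CPM. Levels of close copies, and of members with processed pseudogenes, are uncertain, since no source used here states how reads matching several copies were treated.

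Genes with related roles moved in part with the family. Fau, which encodes a ribosomal protein fused to a ubiquitin-like domain, and Rack1, a scaffold on the small subunit, do not meet the symbol rule. Over the 44 sums of 11 classes and 4 libraries, Fau had a correlation of 0.92 with the family's summed level (Pearson, log2 CPM), the highest of 11122 genes outside the family. This is a description, since the sums share libraries and depth. Fau was followed by Cmss1 (0.90), Itm2b (0.83), Tmem176a (0.83) and Tpt1 (0.82), the last a classic carrier of a pyrimidine tract. The median over those genes was -0.04. The summed small and large subunits had 0.99 with each other. Translation-factor and related genes with such tracts had 0.87, short cytosolic mRNAs 0.79, hormone genes 0.66, mitochondrial ribosomal proteins 0.55, ribosome biogenesis factors 0.35 and mTORC1 pathway genes, whose kinase controls translation of these mRNAs, -0.26.

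The library labelled 22-month females was also the lowest in 11 of 11 classes for the short cytosolic mRNAs and for the snoRNA host genes, in 10 for the mitochondrial ribosomal proteins, in 8 for the hormone genes and for the tract genes outside the family, in 7 for nucleus-retained RNAs, in 5 for the biogenesis factors and in 0 for the mTORC1 genes. Against the hormone classes, the non-hormone classes were higher in Fau (0.19, edgeR adjusted p = 0.00873) and Rack1 (0.21, adjusted p = 0.0285). Of 15 tract genes 3 were higher and 0 lower (Eif3e 0.37, Btf3 0.24 and Tpt1 0.21), where 21.1% of all genes were higher and 31.2% lower. Of 19 biogenesis factors 1 was higher, Ncl (0.21), which encodes nucleolin, and 5 were lower, among them Nop56 (-0.70) and Bop1 (-0.54). Of 15 mTORC1 genes 2 were higher and 7 lower. Against those shares of all genes, the tract and biogenesis counts are not results about these lists. With labelled age in somatotrope-like nuclei 4 of 7 snoRNA host genes were lower (Snhg8, -0.88, and Snhg1, Snhg12 and Gas5), against 2.23% of all genes, and 0 of the tract genes were called. In lactotrope-like nuclei 5 of 17 short cytosolic mRNAs were lower, against 12.6% of all genes, and 2 of 15 tract genes higher, near the 13.4% of all genes.

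Between the quartiles of nuclei with the fewest and the most UMIs, the summed level fell within every class and library examined. The UMIs of a nucleus are also the total that CPM divides by. Counted per nucleus in somatotrope-like nuclei, the family instead rose, from 38.5, 40.2, 43.5 and 34.7 UMIs to 71.3, 73.1, 75.4 and 64.3. In 24 of 24 sets with at least 200 nuclei, the quartile of nuclei with the fewest UMIs exceeded the quartile with the most, by a median of 1.68-fold (1.16 to 2.07). In somatotrope-like nuclei the shallowest quartile had 16612, 17291, 18310 and 13706 CPM and the deepest quartile 11153, 10698, 11019 and 7698.1. In stem-like nuclei these were 11900, 12918, 16048 and 10982 against 7663.9, 7483.6, 9504.1 and 5552.0. Within each quartile given here the library labelled 22-month females was the lowest. Between nuclei of 3000 to under 5000 UMIs only, the summed level was 13302, 13556, 13923 and 10619 CPM in somatotrope-like nuclei and 7086.0, 8679.8, 10364 and 6516.6 in stem-like nuclei (59, 89, 261 and 88 nuclei). In lactotrope-like nuclei of that depth it was 9798.8, 10322, 10814 and 9619.7 CPM, so there the libraries labelled 22-month females and 5-month males lay close together.

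**Figure D4:**
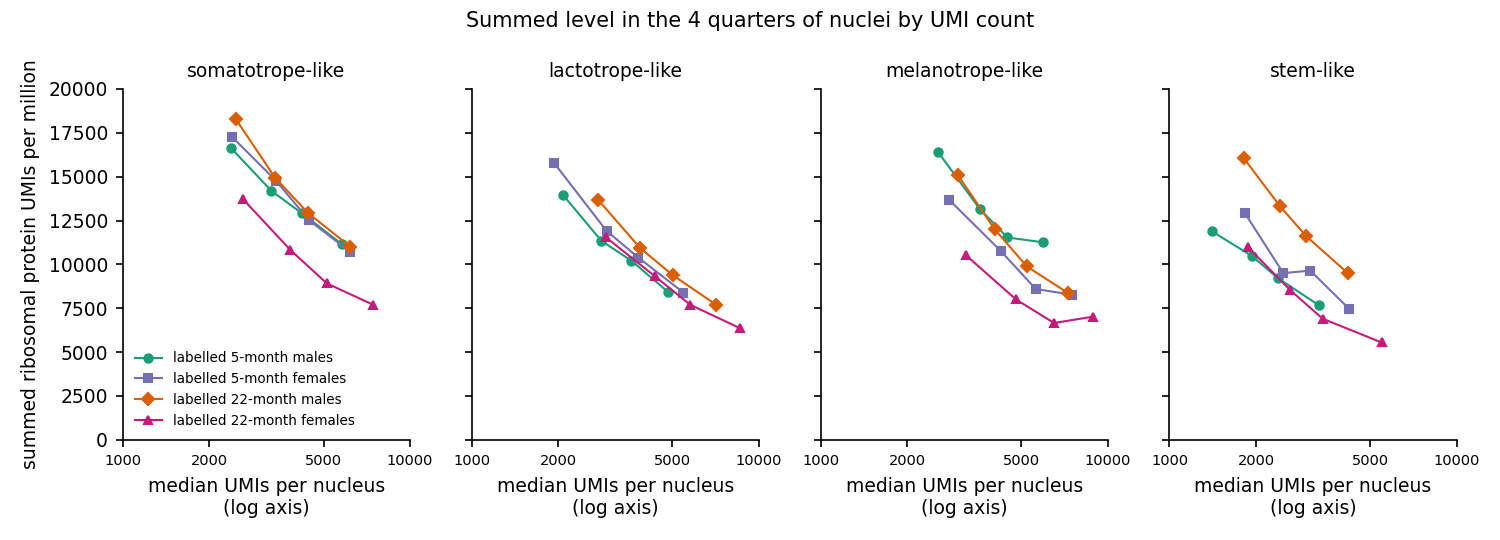
Summed level of the ribosomal protein genes (CPM) by quartile of nuclei ordered by total UMIs, against the quartile's median UMIs per nucleus (log axis), for 4 classes with 1 line per library. The level is lower in the deepest than in the shallowest quartile in each line shown, though not at every step.

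Barcodes with few genes carried the family in a larger share. Barcodes with fewer than 500 genes, which were left out of the classes, had 35108, 42561, 40006 and 35372 CPM of these genes, at a median of 614 to 651.5 UMIs, or 28.3, 29.8, 28.6 and 25.0 UMIs of the family each. Of the 81 genes with at least 1000 UMIs, 80 were higher there than in the kept nuclei in 4 of 4 libraries, by a median of 1.81 on the log2 scale, against -1.25 for genes above 10 CPM, of which 9.91% were higher in all libraries. The largest was Rps21 (2.51), and the exception was Rpl7l1 (-1.02). Over 10424 genes this difference was related to gene length (Spearman rho -0.53). Among the 784 of them under 5000 bases its median was 0.42, or 0.27 without the family. Over the 81 rho was -0.06, but 68 genes of the whole family are under 5000 bases, which leaves little range of length. Rpl11 (25164 bases) and Rps14, with long annotated spans, stood at 1.78 and 1.75.

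Hormone RNA was counted in nuclei of classes that should lack it. Gh, the growth hormone gene, was at 56295, 29649, 32997 and 16667 CPM in stem-like nuclei, and Prl, the prolactin gene, at 10697, 4807.8, 68915 and 24815. Gh in stem-like nuclei was lowest in the library labelled 22-month females, as the family was. Per UMI of Gh and Prl together, the family had 0.138, 0.270, 0.115 and 0.173 UMIs in stem-like nuclei and 0.0844, 0.183, 0.0996 and 0.128 in the barcodes under 500 genes, a ratio of 1.16 to 1.64. The same ratio was 1.05 to 1.33 in macrophage-like and 1.15 to 1.64 in endothelial-like nuclei, the 2 classes with the highest family level. In gonadotrope-like nuclei, the class with the lowest, it was 1.41 to 2.91. It was 1.13 to 1.42 in fibroblast-like or mural and 1.77 to 3.63 in melanotrope-like nuclei. In pituicyte-like, corticotrope-like and thyrotrope-like nuclei it was 1.66 to 3.70, 1.29 to 2.36 and 1.43 to 2.39. Over all these classes the ratio did not follow the order of the family's level. The part of such RNA in the differences between classes and libraries was not tested.

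**Figure D5:**
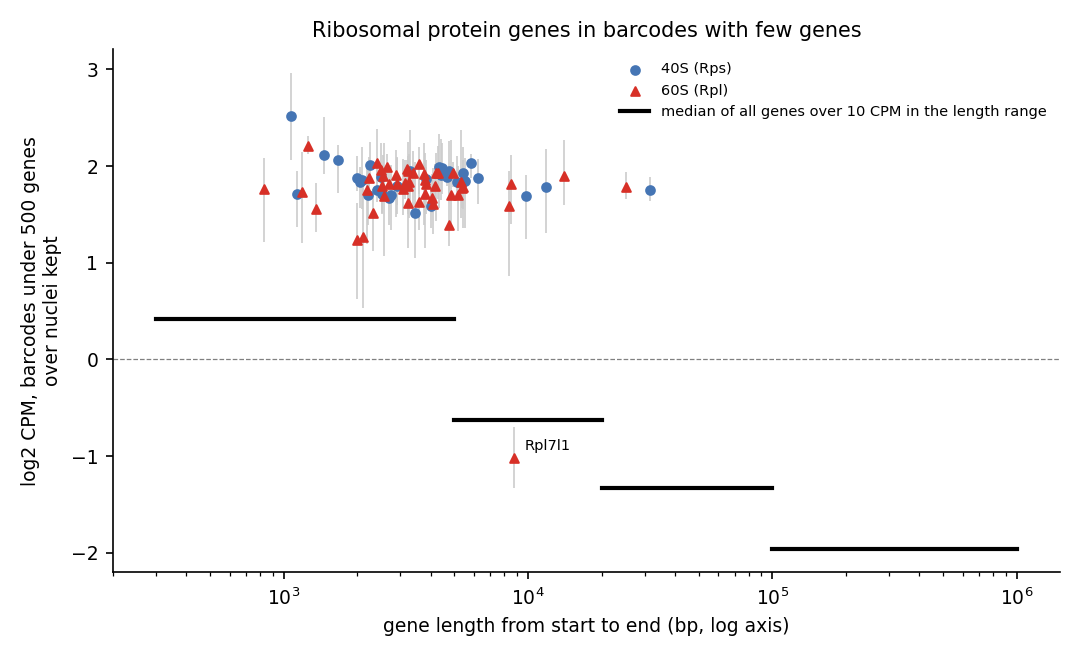
Log2 difference in CPM between barcodes under 500 genes and kept nuclei, for each of the 81 ribosomal protein genes with at least 1000 UMIs against gene length in bases (log axis), with grey bars for the range over the 4 libraries and black lines for the median of all genes above 10 CPM in each range of length. The genes plotted lie above those medians across lengths, apart from Rpl7l1 at -1.02.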

How the data were processed

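UMI counts per gene and barcode were deposited by the authors for 4 single-nucleus libraries. They were made with Cell Ranger 7.0.1, per the file headers, on build mm10, per the submitters' processing notes. No source used here states how intronic and multiply matching reads were handled. The feature and barcode lists hold names only.

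From these counts, barcodes under 500 genes or over 5% mitochondrial UMIs were left out, then doublets by Scrublet in scanpy 1.11.5 (threshold 0.1346, the median of the automatic ones). Nuclei were clustered (3000 variable genes without the ribosomal protein genes, 30 principal components, 15 neighbours, Leiden resolution 1). Clusters were named from fixed markers by a score and a gap to the next class of at least 0.5 (log2), thresholds set after the clusters were seen, and 3 clusters stayed unnamed. A further 2 small clusters, with cycling and T-cell markers, had under 30 nuclei in a library. Counts were summed per class and library, given as CPM of the class, and tested with edgeR 4.0.16 (quasi-likelihood, TMM scaling, low-count filter, labelled age and sex as terms) in R 4.3.3, p-values adjusted over all genes. DESeq2 1.42.0, other scaling, filters and clusterings, and each library left out were alternatives. The fits were tested on simulated data. Gene positions are from GENCODE M21. In the labelled fits, p-values rest on how far the libraries depart from additive effects of labelled age and sex, moderated over all genes. A labelled-age difference that is unlike in the labelled sexes adds to this residual. These p-values do not cover the spread between animals or between repeats of a group. In the class contrasts they rest on the scatter of the class sums around the class and library terms, with the classes of a library treated as independent. Poisson intervals (95%) cover counting error only. Genes named are those called, the highest, and the exceptions to the common order of libraries. The members and gene lists were chosen with earlier results of these data known. Some genes of the family are not reported here by name.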

Additional observations from a re-analysis of the deposited data

Results flagged for a closer look

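In 5 classes the summed level of the ribosomal protein genes moved in opposite directions with labelled age in the labelled sexes. The difference between the sexes was not tested, since each side is 1 pair of libraries. In stem-like nuclei the log2 ratio of 22 to 5 months was 0.34 between the libraries labelled male and -0.38 between those labelled female, a difference of 0.72. In macrophage-like nuclei the ratios were 0.32 and -0.64, a difference of 0.96, and in endothelial-like nuclei 0.19 and -0.77, a difference of 0.95. In fibroblast-like or mural nuclei they were 0.15 and -0.42, a difference of 0.56. In somatotrope-like nuclei they were 0.03 and -0.46, a difference of 0.49, of which the labelled-male side was close to 0. The other 6 classes were negative on both sides, corticotrope-like nuclei by -0.01 on the labelled-male side. Both labelled sexes pair a library of male-type with one of female-type sex-chromosome transcripts.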

How the results depend on the processing

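No paired analysis was possible because, in the labelled comparisons, each group is 1 library and the labels carry no replicate numbers, while the class contrasts already had the library as a term. Over the settings tried, 93 values of the main results were little moved and 34 moved. A summed difference counted as little moved when it stayed within the SD of its 2 labelled-sex pairs. Either pair taken alone meets that by construction, so those settings are no test of stability. In stem-like nuclei the pairs were 0.34 and -0.38, around a mean of -0.02 with an SD of 0.51. No called direction reversed, and the untested summed difference in lactotrope-like nuclei changed sign once, as given below. Labelled fits without a library also lost the other label as a term. Labelled age in lactotrope-like nuclei (4 lower calls) gave 0 with DESeq2, 1 with relative log expression scaling, 2 at Leiden resolution 2, 2 with the family used in clustering, 0 without labelled sex as a term and 0 to 0 with a library left out. Labelled sex in stem-like nuclei (7 lower) gave 4 with the other scaling, 3 without the low-count filter, and 0 with DESeq2, without hormone genes, without doublet removal, without the mitochondrial limit, without labelled age as a term and with any library left out (0 to 0). Without the filter, labelled sex gave 28 calls in somatotrope-like nuclei and 1 in lactotrope-like nuclei, and labelled age gave 3 in somatotrope-like nuclei. Labelled age in stem-like nuclei gave 0 to 4 with a library left out, 4 of them without the library labelled 22-month males. The class contrast (26 calls) gave 47 with DESeq2, 42 with the other scaling (all higher), 6 without the filter and 10 to 24 with a library left out. Stem-like against hormone classes (3 calls) gave 2 to 5 with a library left out, the 5 without the library labelled 22-month males. The summed labelled-age difference in lactotrope-like nuclei was -0.26 as reported, -0.0239 after TMM scaling and 0.0203 in nuclei of 3000 to under 5000 UMIs, the last an alternative chosen after seeing the data. For the 40 single-gene results, 275 values kept their call and 183 lost it. Without doublet removal under 30 nuclei of a library were named lactotrope-like, against 2155 to 4611 per library in the main setting. That setting only adds barcodes, so the naming rule gave most of these nuclei there another name or none. The lactotrope-like fits and the class contrasts therefore gave no value. In the library labelled 22-month females, somatotrope-like nuclei went from 1964 to 1213 and thyrotrope-like nuclei from 245 to 521. Several classes had under 100 nuclei in a library, which limits single genes there.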

Other observations

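An unnamed cluster of 338 nuclei, led by the B-cell genes Igkc and Bank1 and by haemoglobin genes, had the highest summed level of the ribosomal protein genes among clusters described here, at 25737, 29182, 36422 and 27644 CPM. It was left out of the classes. The 5 gene symbols containing -ps that the rule left out summed to 9.92, 8.24, 7.71 and 7.21 CPM in all kept nuclei, also lowest in the library labelled 22-month females.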
